A study of Mus musculus with 2 samples.

Results

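The miR-23, miR-27 and miR-24 microRNAs (miRNAs) come from 6 mouse hairpin genes that lie in 2 clusters, Mir23a, Mir27a and Mir24-2 on chromosome 8 and Mir23b, Mir27b and Mir24-1 on chromosome 13. Their reads were taken as the deposited sequences that match a GENCODE vM21 hairpin on the sense strand, over the full length or with up to 3 unmatched bases at the 3' end. In all, 552 of the 538100 listed sequences met this rule, from 6 of the 615 named miRNA hairpins with a read. A sequence that fits both the a and the b copy of a miRNA was kept apart as shared.

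One library held nuclear small RNAs, from the pellet that contains the nuclei, and the other held cytoplasmic small RNAs of the same kind of cell, with 1 library for each. Both groups were bone marrow-derived dendritic cells (BMDC) of C57BL/6 mice, grown with GM-CSF and IL-4 for 7 days and stimulated with LPS, the bacterial cell wall component that activates these cells. There was no unstimulated group, and for the mice and the LPS, neither age, number, dose nor time is stated in the labels. The labels do not say whether both fractions came from the same culture. The series asked which small RNAs are enriched in the nucleus of innate immune cells.

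A miRNA hairpin is cut out of a longer nuclear transcript by Drosha and then opened by Dicer, which leaves a duplex of a 5p and a 3p arm. One arm, the guide, stays in an Argonaute protein and finds target mRNAs mainly through its seed, bases 2 to 8, while the other, the passenger, is mostly lost. Transcription of the chromosome 8 cluster is driven in mouse myeloid cells by PU.1, and members of both clusters are known in T cells for restraining helper cell differentiation and cytokine production.

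The mature 3p arms show why reads of the copies are hard to tell apart. The seed is in capitals. All are on the plus strand of GRCm38, the assembly also called mm10, and come from RefSeq (GRCm38.p6), except miR-23b-3p, which is given from the deposited sequences with T for U.
miR-23a-3p: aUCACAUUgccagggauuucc
miR-23b-3p: aTCACATTgccagggattacc
miR-27a-3p: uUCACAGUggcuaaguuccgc
miR-27b-3p: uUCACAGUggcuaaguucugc
miR-24-3p: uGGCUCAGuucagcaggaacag
Counted from the 5' end, miR-23a-3p and miR-23b-3p differ by U19A and miR-27a-3p and miR-27b-3p by C19U, where the first letter is the base of the a copy. Each pair therefore has the same seed, and only reads that reach position 19 separate the copies. The 3p arm of Mir24-1 and of Mir24-2 is the same sequence, so its reads were 1 entry.

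The 5p arms, the passengers of these hairpins, are shown because those with enough reads had the lowest level ratios of the 3 families.
miR-23a-5p: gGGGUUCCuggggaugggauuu
miR-23b-5p: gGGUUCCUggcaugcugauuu
miR-27a-5p: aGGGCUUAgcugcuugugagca
miR-27b-5p: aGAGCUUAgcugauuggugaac
miR-24-2-5p: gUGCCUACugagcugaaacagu
miR-24-1-5p: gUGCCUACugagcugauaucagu
At the starts printed here, the 2 forms of miR-24-5p share a seed, and the 5p arms of the miR-23 and the miR-27 copies do not. A longer form of miR-23b-5p, given below, has the seed of miR-23a-5p.

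The chromosome 8 hairpins span 404 nt, with Mir23a at 84208518 to 84208592, Mir27a at 84208672 to 84208758 and Mir24-2 at 84208815 to 84208921. Mir23a and Mir27a overlap no other annotated gene, and Mir24-2 overlaps an exon of the long noncoding RNA Gm26532. The chromosome 13 hairpins span 792 nt, with Mir23b at 63300484 to 63300557, Mir27b at 63300712 to 63300784 and Mir24-1 at 63301208 to 63301275. All of them lie inside 2010111I01Rik on the same strand and inside Fancc, a Fanconi anaemia gene, on the other. Mir23b overlaps no annotated exon of 2010111I01Rik, and exons of Fancc were not compared. Mir27b lies whole in exon 6 and Mir24-1 whole in exon 2 of transcripts of 2010111I01Rik that are annotated as targets of nonsense-mediated decay.

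The table gives RPM, which divides reads by the total listed for a library, and from it 2000019 nuclear and 2041383 cytoplasmic reads were recovered. As a check of the fractions, small nucleolar RNA (snoRNA) took 9.08% of the nuclear library and 0.291% of the cytoplasmic one, and mitochondrial tRNA had a nuclear over cytoplasmic ratio of 0.354. Mitochondrial rRNA was nearer to even, with a ratio of 0.838, and small nuclear RNA had a ratio of 2.54. For named miRNA the share was 39.8% nuclear and 74.6% cytoplasmic. The 14 miRNAs of a haematopoietic and myeloid list were all present in both libraries, with 152896 nuclear and 433642 cytoplasmic reads. Of these, miR-21a-5p alone had 54762 and 220925. The list holds the cell type markers miR-223-3p (392 nuclear and 612 cytoplasmic reads), miR-142a-3p (393 and 677) and miR-142a-5p (3218 and 5565). Its other cell type markers are miR-155-5p (12219 and 9002) and miR-146a-5p (502 and 1447). Of other cell types, the hepatocyte miRNA miR-122-5p had 287 nuclear and 24 cytoplasmic reads and 3 muscle miRNAs 141 and 18. Neural miRNAs had 882 nuclear and 1784 cytoplasmic reads, nearly all of them miR-9-5p (861 and 1759), while miR-124-3p had 21 and 25. Stromal miRNAs had 707 nuclear and 621 cytoplasmic reads, epithelial ones 176 and 351 and the endothelial miR-126a-3p 3 and 1. The erythroid miR-451a had 0 nuclear and 2 cytoplasmic reads, and miR-144-3p had 0 in both. The part of these in the results was not tested.

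With 1 library in each group there is no replicate and no test. A ratio is nuclear over cytoplasmic RPM with an exact 95% interval. Such intervals hold counting error alone, because PCR copies of a molecule cannot be recognised here. An entry with at least 50 reads over both libraries was called higher or lower when it was past 2-fold and its interval left out 1. In bulk libraries, fewer cells of a type and less RNA per cell cannot be told apart.

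All 3 families were abundant, and their 3p arms had lower RPM in the nuclear than in the cytoplasmic library, a direction that turned for all but shared miR-27-3p when scaled to the miRNA total. Together the arms held 25822 nuclear and 47620 cytoplasmic reads, which were 3.24% of nuclear and 3.13% of cytoplasmic miRNA reads. Their share of all miRNA was thus nearly the same in both libraries, while their RPM was 12911 in the nuclear and 23327 in the cytoplasmic library.

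miR-24-3p was the most abundant single entry, with 10633 reads (5316 RPM) in the nuclear library and 16932 reads (8294 RPM) in the cytoplasmic library. That put it at rank 17 in the nuclear and rank 18 in the cytoplasmic library among 231 miRNA entries. Its ratio was 0.641 (95% interval 0.626 to 0.657), or -0.64 on the log2 scale, and it was not called.

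miR-23a-3p had 3736 reads (1868 RPM) in the nuclear and 6367 reads (3119 RPM) in the cytoplasmic library, with a ratio of 0.599 (0.575 to 0.624). Its copy miR-23b-3p was less abundant, with 1055 nuclear reads (527 RPM) and 1723 cytoplasmic reads (844 RPM). The ratio of miR-23b-3p was 0.625 (0.578 to 0.675), an interval that overlaps that of miR-23a-3p, so the partition of the copies could not be told apart at this depth. Sequences shared by the copies were rare, with 62 nuclear and 86 cytoplasmic reads and a ratio of 0.736 (0.522 to 1.03).

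miR-27a-3p had 1984 reads (992 RPM) in the nuclear and 2999 reads (1469 RPM) in the cytoplasmic library, and miR-27b-3p had 1949 reads (974 RPM) and 3681 reads (1803 RPM). Over all lengths, their nuclear levels overlapped within counting error, and their cytoplasmic levels did not. Most miR-27b-3p reads were a short form that an added T on a sequence shared by the copies would also give, as described below. Over reads of 20 to 24 nt, miR-27a-3p led, with 1845 nuclear and 2819 cytoplasmic reads against 449 and 812 of miR-27b-3p. Over all lengths, the ratio was 0.675 (0.638 to 0.715) for miR-27a-3p and 0.540 (0.511 to 0.571) for miR-27b-3p, and neither was called. Most miR-27-3p reads were shared by the copies, with 6251 reads (3125 RPM) in the nuclear and 15227 reads (7459 RPM) in the cytoplasmic library. The shared sequences had a ratio of 0.419 (0.407 to 0.432), which is 2.39-fold lower in the nuclear library, and they were called lower, a call that scaling to the miRNA total ended (log2 ratio -0.35). Summed over the copies and the shared sequences, miR-27-3p had a ratio of 0.474 (0.463 to 0.486), against 0.606 (0.585 to 0.628) for miR-23-3p.

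**Figure D1:**
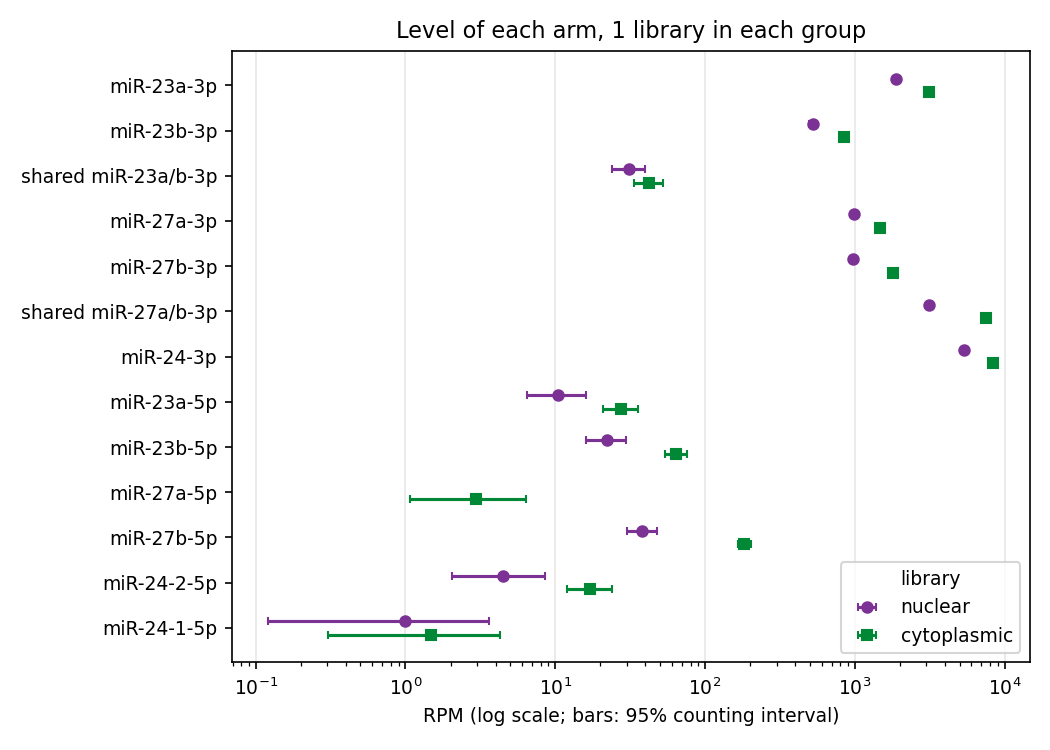
Level of each arm in RPM on a log axis, with 1 point for the nuclear (circle) and 1 for the cytoplasmic library (square) and exact 95% counting intervals as bars. The nuclear point lies left of the cytoplasmic one for every arm that had reads in both libraries, and miR-27a-5p had 0 nuclear reads and is drawn for the cytoplasmic library only; scaled to the miRNA total, the 3p arms other than shared miR-27-3p turn to the other direction.

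The passenger arms were scarce, and with RPM the 3 that passed the minimum had lower ratios than the guides of their own hairpins. miR-27b-5p had 76 reads (38 RPM) in the nuclear and 374 reads (183 RPM) in the cytoplasmic library, a ratio of 0.207 (0.160 to 0.266), or 4.82-fold lower. Only 4 of the 231 miRNA entries had a lower log2 ratio, so it stood at rank 5 from the lowest. miR-23b-5p had 44 nuclear and 131 cytoplasmic reads and a ratio of 0.343 (0.238 to 0.486), or -1.53 on the log2 scale. Its value rested on the choice of reads, with -2.58 for the commonest 5' end (14 nuclear and 88 cytoplasmic reads) and -3.85 for the most abundant sequence (3 and 51). miR-23a-5p had 21 nuclear and 56 cytoplasmic reads and a ratio of 0.383 (0.220 to 0.642). These 3 arms were called lower, and scaled to the miRNA total the calls of the miR-23 passengers ended. The other passengers were under the minimum of 50 reads, with 0 nuclear and 6 cytoplasmic reads of miR-27a-5p, 9 and 35 of miR-24-2-5p, and 2 and 3 of miR-24-1-5p.

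Of the 13 entries of the 3 families, 10 passed the minimum, and of these 4 were called lower and 0 higher in the nuclear library. Among all 231 miRNA entries, 29.0% were called lower and 11.7% higher by the same rule. The median log2 ratio was -0.81 over the 10 entries and -0.65 over all 231, and -0.68 over the 7 entries of 3p arms, of which 1 was called lower. As a group the 3p arms therefore lay near the middle of the miRNAs. In the haematopoietic and myeloid list 7 of 14 entries were called lower and 0 higher, with a median of -0.96. In a list of 32 entries from other paralogous miRNA clusters 9 were called lower and 1 higher, with a median of -0.76.

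All 10 entries were below 0 on the log2 scale with RPM, but 6 of them, the miR-23-3p, miR-24-3p and copy-specific miR-27-3p entries, lay above 0 when the libraries were scaled to their miRNA totals. That scaling adds 0.91 to every log2 ratio, and it left only miR-27b-5p called lower among the 10, at -1.36.

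**Figure D2:**
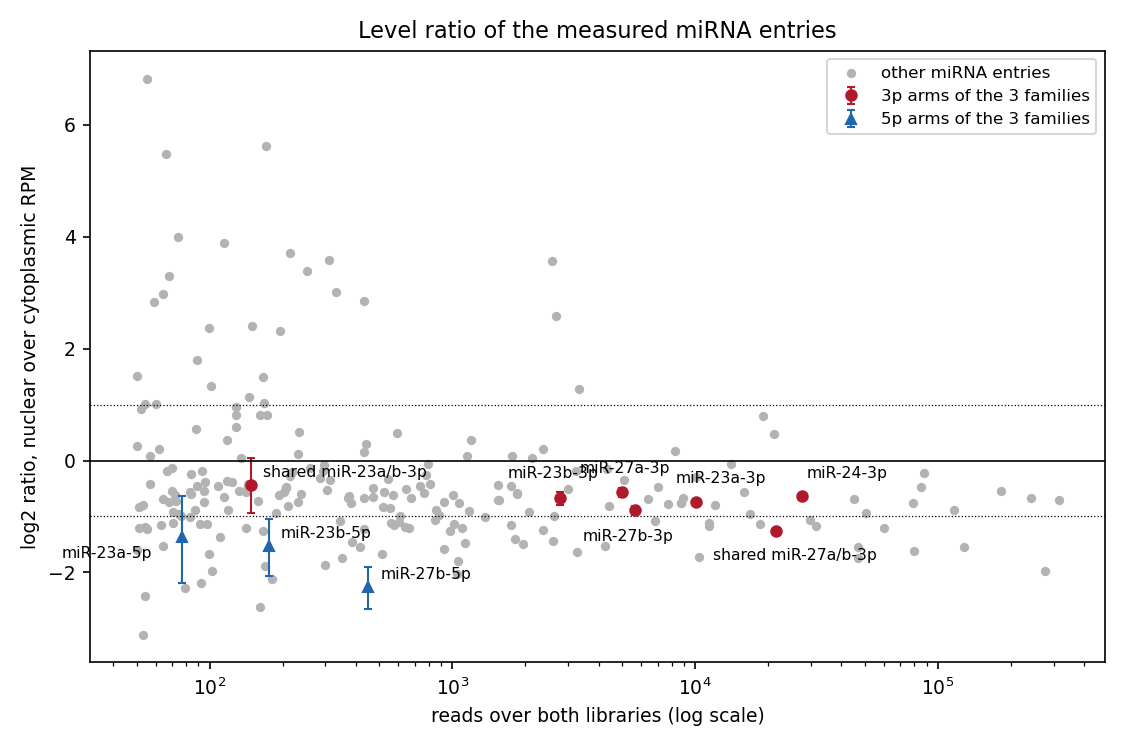
Log2 ratio of nuclear over cytoplasmic RPM against reads over both libraries (log axis) for 231 miRNA entries, with the 3p arms (red circles) and 5p arms (blue triangles) of the 3 families and their 95% counting intervals, and dotted lines at 2-fold. The 3p arms lie among the other abundant miRNAs, the shared miR-27-3p entry falls past the lower dotted line, and the 5p arms fall below it, with miR-27b-5p at -2.26; scaled to the miRNA total, every point moves up by 0.91.

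Among 73 other entries with at least 1000 reads, those nearest in log2 ratio to miR-24-3p (-0.64) were let-7a-5p (-0.66), miR-223-3p (-0.61) and miR-210-3p (-0.68). miR-223-3p is a hallmark of myeloid cells and miR-210-3p is known for its induction by hypoxia. miR-23a-3p (-0.74) stood nearest to miR-142-3p (-0.75), miR-142-5p (-0.76) and miR-29a-3p (-0.76), the first 2 being the arms of a haematopoietic hairpin. miR-27a-3p (-0.57) stood nearest to miR-320-3p (-0.57), miR-1981-5p (-0.58) and let-7c-5p (-0.55). Likeness here is over 2 libraries only.

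The 5p share of a hairpin's reads is measured within a library and does not depend on the scaling. Over the 3 families 5p arms made up 0.589% (0.499 to 0.690) of nuclear and 1.27% (1.17 to 1.38) of cytoplasmic arm reads. In the miR-27 family the share was 0.741% (0.584 to 0.926) in the nuclear and 1.71% (1.54 to 1.88) in the cytoplasmic library. Over reads of 20 to 24 nt, which leave out the 18-nt and 19-nt reads of miR-27-3p, it was 2.78% nuclear and 8.85% cytoplasmic. The miR-23 family had 1.32% (1.02 to 1.68) nuclear and 2.24% (1.93 to 2.58) cytoplasmic over all lengths, and 1.20% and 2.17% at 20 to 24 nt, so the order of these families depends on the lengths counted. In these 2 families the intervals of the libraries did not overlap over all lengths. For miR-24 the share was 0.103% (0.0516 to 0.185) nuclear and 0.224% (0.159 to 0.307) cytoplasmic, and the intervals overlapped.

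Mir23b and Mir27b on chromosome 13 had larger passenger shares than Mir23a and Mir27a on chromosome 8. With reads shared by the copies left out, miR-27b-5p was 3.75% of the nuclear and 9.22% of the cytoplasmic reads of its hairpin, against 0% and 0.200% for miR-27a-5p. The shared reads left out were 61.4% of nuclear and 69.5% of cytoplasmic miR-27-3p reads. Counting them with a hairpin would lower any share above 0, so these shares are upper values. The miR-27a-5p count of 0 in 1984 nuclear reads allows a share of up to 0.186% (upper limit of the exact 95% interval). Likewise miR-23b-5p was 4.004% of the nuclear and 7.07% of the cytoplasmic reads of its hairpin, and miR-23a-5p 0.559% (0.346 to 0.853) and 0.872% (0.659 to 1.13), intervals that overlap. For miR-24 the passenger share of each copy cannot be had, since the 3p arms are identical, and the chromosome 8 passenger miR-24-2-5p had more reads than miR-24-1-5p. In 3 hairpins of the families both arms passed the minimum, and in each the lesser arm had the lower log2 ratio. Of 32 other hairpins with both arms measured, the lesser arm had the lower log2 ratio in 15, and the median difference was 0.04.

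The read lengths separate miR-27-3p from the other families. Reads of 18 nt, the shortest length listed, made up 60.9% of nuclear and 68.6% of cytoplasmic miR-27-3p reads, against 1.37% and 0.743% of the reads of all other miRNAs. The most frequent miRNA form in these families was this 18-nt sequence, shown because it holds most of the shared reads and ends just before the base that separates the copies.
miR-27-3p, 18 nt: ttcacagtggctaagttc
It had 6186 reads (3093 RPM) in the nuclear and 14988 reads (7342 RPM) in the cytoplasmic library. Among GENCODE transcripts it occurs in Mir27a, Mir27b and 2010111I01Rik, in which Mir27b lies, and in no other gene. miR-27-3p alone gave 36.7% of nuclear and 57.4% of cytoplasmic miRNA reads of 18 nt. Of 76 entries with at least 1000 reads, 3 had more than 50% of reads at 18 nt and the median was 0.620%. Copies were summed for miR-23-3p and miR-27-3p only. Above miR-27-3p (66.1%) stood sequences shared by miR-3473b-3p and miR-3473e-5p (99.5%) and by let-7a-5p and let-7c-5p (77.1%). Shorter reads are not analysed here, so the full extent of shortening is not measured.

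The ratio of miR-27-3p changed with read length. It was 0.421 (0.408 to 0.433) at 18 nt, 0.533 (0.502 to 0.566) at 19 nt, 0.600 (0.557 to 0.646) at 20 nt and 0.801 (0.729 to 0.880) at 21 nt. At 22 nt it was 0.502 (0.409 to 0.614), at 23 nt 0.543 (0.455 to 0.645) and at 24 nt 0.800 (0.475 to 1.34). From 18 to 21 nt the ratio was higher at each length, and the intervals of 18, 19 and 21 nt did not overlap each other. That of 22 nt overlapped that of 18 nt.

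miR-24-3p ran the other way. Its ratio was 1.03 (0.751 to 1.42) at 18 nt, 0.934 (0.769 to 1.13) at 19 nt and 1.16 (0.996 to 1.35) at 20 nt, intervals that hold 1. It was 0.703 (0.644 to 0.768) at 21 nt, 0.640 (0.618 to 0.662) at 22 nt, 0.613 (0.587 to 0.640) at 23 nt and 0.455 (0.405 to 0.509) at 24 nt. For all other miRNAs summed the ratio was 0.980 at 18 nt, 0.463 at 20 nt, 0.558 at 22 nt and 0.449 at 24 nt. miR-23-3p varied less, between 0.557 (0.481 to 0.644) at 24 nt and 0.762 (0.535 to 1.08) at 18 nt. These are ratios of RPM, and scaling to the miRNA total would raise each by the same factor.

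**Figure D3:**
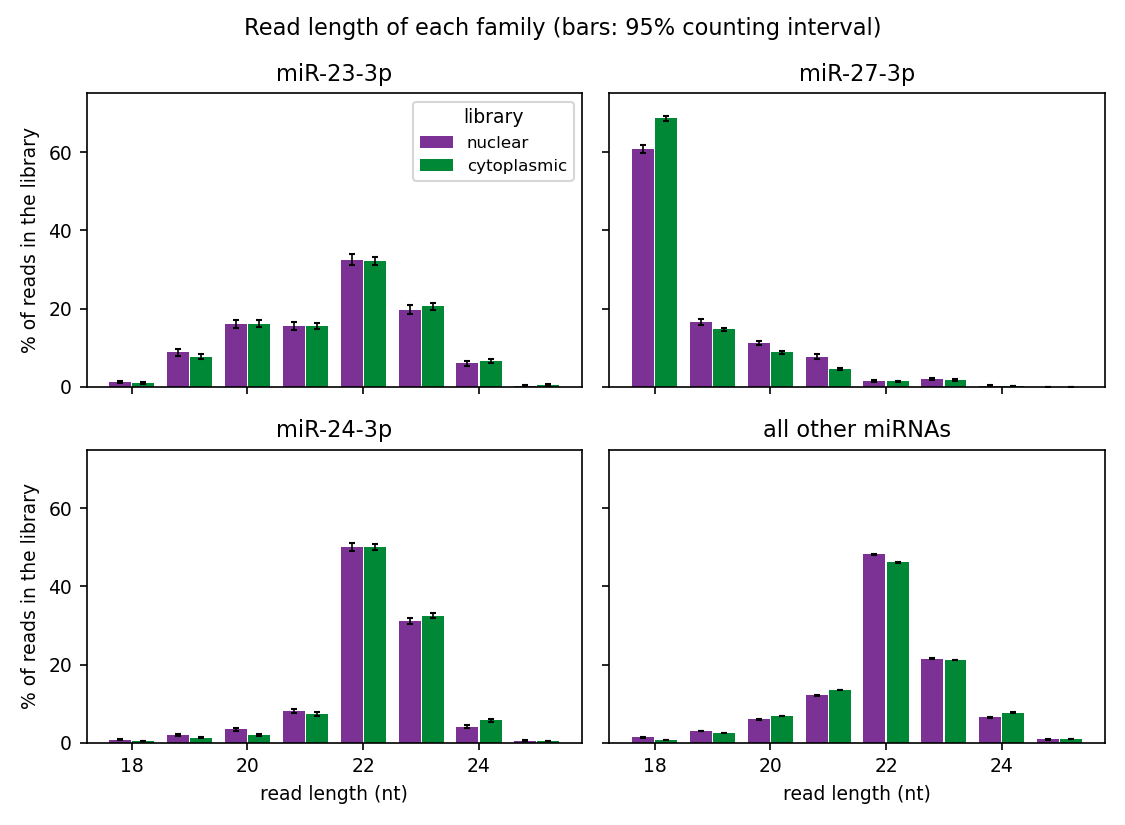
Share of reads by length (nt) within each library for the 3 families of 3p arms and for all other miRNAs, with nuclear bars left of cytoplasmic bars and exact 95% counting intervals. miR-27-3p peaks at 18 nt with 60.9% of nuclear and 68.6% of cytoplasmic reads, while miR-23-3p, miR-24-3p and the other miRNAs peak at 22 nt.

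Reads that reach position 19 give the shares of the copies. miR-23a-3p made up 78.0% (76.8 to 79.1) of nuclear and 78.7% (77.8 to 79.6) of cytoplasmic reads that tell miR-23a-3p from miR-23b-3p, and these intervals overlapped. miR-27a-3p made up 50.4% (48.9 to 52.0) of nuclear and 44.9% (43.7 to 46.1) of cytoplasmic reads that tell miR-27a-3p from miR-27b-3p, and these did not. The leading forms of the copies are given with base 19 in capitals.
miR-23a-3p, 22 nt: atcacattgccagggattTcca
miR-23b-3p, 22 nt: atcacattgccagggattAcca
miR-27a-3p, 20 nt: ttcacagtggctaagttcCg
miR-27b-3p, 19 nt: ttcacagtggctaagttcT
The miR-23 copies share the same leading length of 22 nt, with 1271 nuclear and 2148 cytoplasmic reads of miR-23a-3p and 251 and 387 of miR-23b-3p. The miR-27 copies do not. The 20-nt form of miR-27a-3p had 1034 nuclear and 1755 cytoplasmic reads, and the 19-nt form of miR-27b-3p had 1496 and 2859.

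The 19-nt form of miR-27b-3p is also what a T added to the shared 18-nt form would give, and these cannot be told apart. The 18-nt form with an added A, which fits neither copy, had 20 nuclear and 34 cytoplasmic reads. At 19 nt miR-27a-3p was 8.39% of nuclear and 5.92% of cytoplasmic reads, and at 20 nt 91.9% and 92.6%. At 21 nt it was 77.9% nuclear and 75.8% cytoplasmic, and at 22 nt 41.1% (33.0 to 49.5) and 25.9% (21.04 to 31.3). Over reads of 20 to 24 nt the miR-27a-3p share was 80.4% in the nuclear and 77.6% in the cytoplasmic library, so the copy share rests on the 19-nt reads. The miR-23a-3p share stayed at 80.7% or above from 19 to 22 nt in the nuclear and at 80.5% or above in the cytoplasmic library. At 24 nt it dropped to 34.6% in the nuclear and 35.7% in the cytoplasmic library. The 19-nt forms of these copies are also open to doubt, since a T or A added to the shared 18-nt miR-23-3p form would give them. That of miR-23a-3p had 334 nuclear and 481 cytoplasmic reads, and that of miR-23b-3p 81 and 117. Over reads of 20 to 24 nt the miR-23a-3p share was 77.8% nuclear and 78.7% cytoplasmic.

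**Figure D4:**
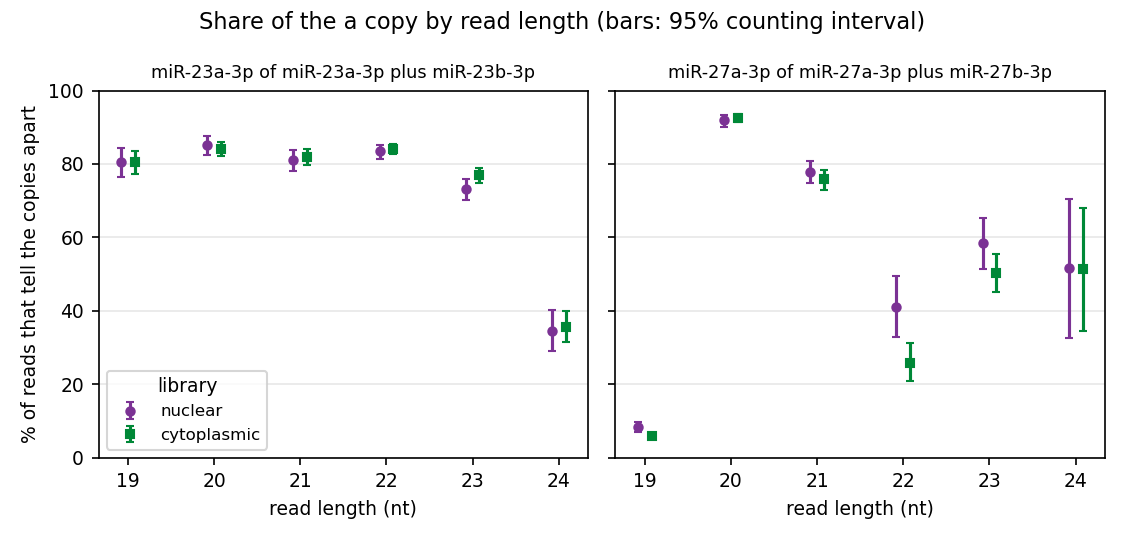
Share of the a copy among reads that tell the copies apart, by read length (nt), for miR-23-3p (left) and miR-27-3p (right), with nuclear circles left of cytoplasmic squares and exact 95% counting intervals. miR-23a-3p leads at 19 to 23 nt in both libraries, and miR-27a-3p moves between 8.39% at 19 nt and 91.9% at 20 nt in the nuclear library.

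Bases added at the 3' end that do not match the hairpin were frequent in miR-24-3p. Such bases were on 40.2% (39.2 to 41.1) of nuclear and 42.8% (42.1 to 43.6) of cytoplasmic miR-24-3p reads, against 17.7% and 17.02% of the reads of all other miRNAs. In the other miRNAs the added bases were mostly A, on 11.4% of nuclear and 10.5% of cytoplasmic reads, with T only on 2.33% and 2.57%. In miR-24-3p they were mostly T, which is U in the RNA, on 26.6% (25.8 to 27.4) of nuclear and 31.0% (30.3 to 31.7) of cytoplasmic reads. Terminal uridylyl transferases add such U to miRNAs and their precursors. Over both libraries miR-24-3p had the highest T-only share of the 76 entries with at least 1000 reads, 29.3% against a median of 2.25%.

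The most frequent form of miR-24-3p and its forms with added T are shown, with the added bases in capitals. The TT form ranks below the 21-nt and the added-A form.
miR-24-3p, 22 nt: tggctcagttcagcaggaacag
miR-24-3p, 23 nt: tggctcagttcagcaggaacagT
miR-24-3p, 24 nt: tggctcagttcagcaggaacagTT
The 22-nt form had 4884 nuclear and 7828 cytoplasmic reads, a ratio of 0.637 (0.614 to 0.660). The form with T had 2513 nuclear and 4471 cytoplasmic reads, a ratio of 0.574 (0.546 to 0.603). The form with TT, named after its values were seen, had 202 nuclear and 555 cytoplasmic reads, a ratio of 0.371 (0.315 to 0.437). The same 22-nt form with an added A, also named after its values were seen, had 578 nuclear and 693 cytoplasmic reads, a ratio of 0.851 (0.761 to 0.952). Reads with 2 or 3 added T were 2.08% (1.82 to 2.37) of nuclear and 3.72% (3.44 to 4.02) of cytoplasmic miR-24-3p reads, and reads with added A only 8.63% (8.11 to 9.18) and 6.99% (6.61 to 7.39). The uridylated forms were thus a smaller share of the nuclear than of the cytoplasmic reads, and the adenylated forms a larger one, with intervals that did not overlap. All other miRNAs summed had the same directions, with T only on 2.33% of nuclear and 2.57% of cytoplasmic reads and A only on 11.4% and 10.5%. In miR-27-3p, T only was on 2.36% of nuclear and 1.57% of cytoplasmic reads, which shows no reversed pattern. No added T could be counted on its 18-nt reads, which were 60.9% of nuclear and 68.6% of cytoplasmic reads. Within miR-27a-3p T only was 8.01% (6.86 to 9.30) nuclear and 7.34% (6.43 to 8.33) cytoplasmic. Within miR-27b-3p it was 4.16% (3.31 to 5.14) and 3.34% (2.78 to 3.97), and in each copy the intervals overlapped.

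In miR-23-3p the added bases were also mostly T, on 14.8% (13.8 to 15.8) of nuclear and 15.8% (15.04 to 16.6) of cytoplasmic reads, and the intervals overlapped. The copies differed from each other, with T only on 28.8% of nuclear and 29.8% of cytoplasmic miR-23b-3p reads, against 11.1% and 12.3% of miR-23a-3p reads. Added T on the 23-nt form of miR-23b-3p is shown because, over both libraries summed, it was the second most frequent form of this arm.
miR-23b-3p, 24 nt: atcacattgccagggattaccacT
It had 118 nuclear and 217 cytoplasmic reads. What counts as added depends on the next base of each hairpin, which can hide an added base that matches it. In miR-27-3p additions were on 6.39% (5.92 to 6.88) of nuclear and 4.70% (4.43 to 4.99) of cytoplasmic reads, counted with a T on the 18-nt form taken as miR-27b-3p. That share is held down by the 18-nt reads, on which no addition could be seen since at least 18 bases had to match. Over reads of 20 to 24 nt additions were on 27.3% of nuclear and 27.1% of cytoplasmic miR-27-3p reads, against 22.2% and 22.9% for miR-23-3p, which turns the order of these families.

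**Figure D5:**
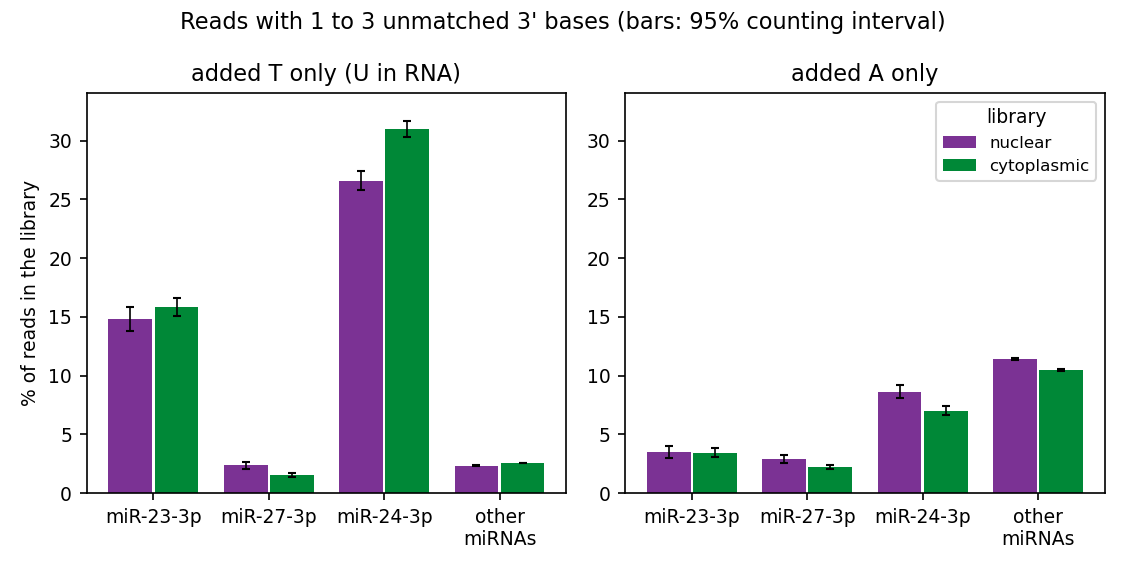
Share of reads in each library whose added 3' bases are T only (left) or A only (right) for the 3 families of 3p arms and for all other miRNAs, with nuclear bars left of cytoplasmic bars and exact 95% counting intervals. miR-24-3p and miR-23-3p stand above the other miRNAs for T, with 26.6% of nuclear and 31.0% of cytoplasmic reads in miR-24-3p, and below them for A.

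The 5' end sets the seed, and it was nearly fixed in the guides. The commonest start held 99.28% of nuclear and 99.01% of cytoplasmic miR-24-3p reads and 99.45% and 98.98% of miR-27-3p reads. It was less fixed in miR-23-3p, with 97.90% nuclear and 98.12% cytoplasmic, and least in its copy miR-23b-3p, with 96.1% and 96.7%. Starts 1 base further upstream were 0.403% (0.289 to 0.546) of nuclear and 0.945% (0.821 to 1.08) of cytoplasmic miR-27-3p reads. The leading form of this kind is shown with its seed at other bases than the usual one.
miR-27-3p, 1 base longer at the 5' end: gttcacagtggctaagttc
It had 28 nuclear and 138 cytoplasmic reads, a ratio of 0.207 (0.133 to 0.313).

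The passenger miR-23b-5p had 2 competing starts, and the libraries differed in which one led.
miR-23b-5p, commonest start overall: gggttcctggcatgctgattt
miR-23b-5p, 1 base longer: tgggttcctggcatgctgattt
The first had 3 nuclear and 51 cytoplasmic reads, and the longer one 20 in each library. Bases 2 to 8 of the longer form are the same as those of miR-23a-5p. Over all lengths the longer start made up 68.2% (52.4 to 81.4) of 44 nuclear and 31.3% (23.5 to 40.0) of 131 cytoplasmic reads of this arm, and the intervals did not overlap.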

How the data were processed

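The authors deposited 1 table of distinct sequences with an RPM value for each library, and per the submitters' processing notes CASAVA and the build mm10 were used. No source used here states the adapter trimming, alignment or filters. The columns were taken as nuclear and cytoplasmic on the last letter of their names, N and C. In both, 100% of values were whole multiples of 1 read (0.500 RPM nuclear, 0.490 RPM cytoplasmic, tolerance 0.1 read), so whole reads were recovered from the deposited RPM. Lengths run over 18 to 39 nt.

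Sequences were matched to GENCODE vM21 small RNA transcripts on the sense strand, exactly or after removal of up to 3 bases at the 3' end with at least 18 left. Member hairpins have the same coordinates in RefSeq GRCm38.p6. A read counted for an arm with an overlap of at least 10 nt. Log2 ratios used a pseudocount of 0.5 reads. Intervals are Clopper-Pearson at 95%, for a ratio conditional on the reads of both libraries, and the floor for a count of 0 against reads is 3 reads. Alternatives were scaling to the miRNA total, edgeR 4.0.16 TMM factors and DESeq2 1.42.0 size factors over 437 small RNAs (R 4.3.3), other read lengths, 5' ends, matches, minimums and pseudocounts. No count test was run, since each group is 1 library. Matching and calls were tested on simulated data (Python 3.11.15, scipy 1.17.1, pandas 2.3.3).

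Every arm is reported, up to 3 leading sequences of an arm may be named, and so are the 3 nearest other entries of at least 1000 reads for 3 arms. Members and lists were chosen with earlier results of these data known.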

Additional observations from a re-analysis of the deposited data

Results flagged for a closer look

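Reads next to the outer end of an arm, upstream of the 5p or downstream of the 3p arm, appeared for these hairpins in the nuclear library only. They are outside the arm levels reported above. There were 27 nuclear and 0 cytoplasmic reads of this kind in 15 sequences, which is 9.19-fold higher in the nuclear library with a floor of 3 reads in place of the 0. With the counting error of the 27 reads included, it is at least 6.97-fold higher, the lower limit of the exact 95% interval. In all, 24 of the 27 nuclear reads ended within 2 nt of the arm. Upstream of miR-24-1-5p there were 22 nuclear and 0 cytoplasmic reads within chromosome 13, 63301189 to 63301212, downstream of the 3p arm of Mir24-1 2 and 0, upstream of miR-27b-5p 1 and 0, and upstream of miR-24-2-5p 2 and 0. The last is shown as an example, from chromosome 8, 84208819 to 84208838, directly next to the first base of miR-24-2-5p.
Mir24-2, 5' flank: ctctccgggctccgcctccc
It occurs in no other GENCODE transcript, and the flanks on chromosome 13 occur in 2010111I01Rik only. At 10 other miRNA hairpins such reads came to 111 nuclear and 5 cytoplasmic, 22.7-fold higher (95% interval 9.42 to 71.2). Of the sequences that match the 6 hairpins of the families, 2 lay outside the arms, with 2 nuclear and 1 cytoplasmic reads in all. The cytoplasmic read is not among the flanking reads counted here.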

How the results depend on the processing

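No paired analysis was possible because each group has 1 library, and no replicate could be left out. Scaling to the miRNA total turned the log2 ratio to 0.17 for miR-23a-3p, 0.23 for miR-23b-3p, 0.47 for shared miR-23-3p, 0.34 for miR-27a-3p, 0.019 for miR-27b-3p and 0.26 for miR-24-3p. It ended the call of shared miR-27-3p (-0.35), miR-23a-5p (-0.46) and miR-23b-5p (-0.63). Median of ratios scaling, which adds -0.26, called miR-23a-3p (-1.0004) and miR-27b-3p (-1.15) lower. Summing the shared sequences with both copies gave a value for the pooled miR-27-3p reads, called lower at -1.08, and none for either copy alone. TMM scaling, which adds -0.10, changed none of the 10 calls. Entries called higher numbered 47 of 231 with miRNA-total scaling, 11 of 166 with the most abundant sequence only, 43 of 317 with a minimum of 20 reads and 60 of 815 with none, against 27 of 231. Entries called lower numbered 10 of 231 with miRNA-total scaling, 101 of 231 with median of ratios and 103 of 815 with no minimum, against 67 of 231.

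With full-length matches only, the miR-23a-3p share was 82.5% nuclear and 83.3% cytoplasmic, the miR-27a-3p share 46.1% and 41.1%, and the cytoplasmic 5p share of miR-24 0.350%. With reads of 20 to 24 nt, the miR-27a-3p share was 80.4% nuclear and 77.6% cytoplasmic, the miR-27 5p share 2.78% and 8.85%, and 3' additions 22.2% and 22.9% in miR-23-3p and 27.3% and 27.1% in miR-27-3p. Additions of A only or T only were 18.3% nuclear and 19.3% cytoplasmic in miR-23-3p, 5.27% and 3.79% in miR-27-3p, and 35.2% and 37.9% in miR-24-3p. The cause of these changes was not tested beyond the reads each setting leaves out. Depth limits the 5p arms most, with 0 to 76 nuclear reads each.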

Other observations

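The strand opposite Mir24-1 and Mir24-2 holds the hairpins Mir3074-1 and Mir3074-2, and 6 sequences of these had 5 nuclear and 3 cytoplasmic reads. miR-24-3p reads that start 2 bases further downstream had 2 nuclear and 28 cytoplasmic reads, or 0.0188% (0.00228 to 0.0679) of nuclear and 0.165% (0.110 to 0.239) of cytoplasmic miR-24-3p reads.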
